A study of Mus musculus with 5 samples.

Results

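The keratin genes were taken as every gene on file whose symbol is Krt followed by digits only, which gave 49 of 31053 genes: 26 of type I and 23 of type II. Krt6a, Krt6b, Krt33a and Krt33b carry a letter and fall outside that rule. The genes were read in single cells of mouse ventral skin at postnatal day 28, all of strain C57BL/6J. The wild-type group had 2 libraries, and the labels do not say whether these mice carried a floxed allele or Cre. The Ikkb-deleted group had 3 libraries from Prx1Cre+Ikkbf/f mice, in which Cre removes floxed alleles of Ikbkb, the gene of the kinase IKKβ in the NF-kB pathway. Each library pooled 2 mice, so the library is the replicate. The Prx1 (Prrx1) enhancer that drives this Cre is active in limb and ventral mesenchyme, fibroblasts included, and not in the epidermal lineage. Keratinocytes are thus not the cells that this Cre targets. The series' title places the study in atopic dermatitis.

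Keratins are the intermediate filament proteins of epithelia. An acidic type I chain pairs with a basic type II chain, and the pair that a cell makes marks where it sits. Krt5 and Krt14 are made by basal keratinocytes, Krt1 and Krt10 by the spinous cells above them, Krt71 with Krt25, Krt27 and Krt28 by the inner root sheath of the hair follicle, and Krt8 and Krt18 by simple and glandular epithelia. Apart from Krt18, which lies beside Krt8 on chromosome 15, the type I genes formed a cluster on chromosome 11 between positions 99232761 and 100269871. The type II genes lay on chromosome 15 between 101347444 and 102004482 (GENCODE positions, build GRCm38).

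The promoter stretches of 9 members are shown, taken from role groups that are described later and that lay largely in different cells. Krt10 and Krt77 stand for the spinous pair, Krt25, Krt27, Krt28 and Krt73 for the inner root sheath, Krt75 and Krt79 for the companion layer and the follicle opening, and Krt5 for the basal layer. Each line gives the 60 bases before the RefSeq start (build GRCm38.p6), 5′ to 3′ on the gene's own strand, and capitals mark the TATA box sequence TATAAA.
Krt10 (chr11:99389365-99389424, minus strand): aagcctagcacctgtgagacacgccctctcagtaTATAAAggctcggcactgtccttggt
Krt77 (chr15:101869706-101869765, minus strand): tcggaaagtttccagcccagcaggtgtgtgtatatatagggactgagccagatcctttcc
Krt25 (chr11:99322952-99323011, minus strand): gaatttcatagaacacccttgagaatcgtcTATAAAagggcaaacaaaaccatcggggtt
Krt27 (chr11:99351119-99351178, minus strand): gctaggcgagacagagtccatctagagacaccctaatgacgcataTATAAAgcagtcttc
Krt28 (chr11:99374904-99374963, minus strand): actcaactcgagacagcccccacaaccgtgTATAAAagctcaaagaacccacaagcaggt
Krt73 (chr15:101802361-101802420, minus strand): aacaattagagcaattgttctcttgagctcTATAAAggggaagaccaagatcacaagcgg
Krt75 (chr15:101573905-101573964, minus strand): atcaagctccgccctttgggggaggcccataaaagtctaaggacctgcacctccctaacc
Krt79 (chr15:101940325-101940384, minus strand): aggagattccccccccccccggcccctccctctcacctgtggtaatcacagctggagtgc
Krt5 (chr15:101712906-101712965, minus strand): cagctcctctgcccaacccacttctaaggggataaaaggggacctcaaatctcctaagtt

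TATAAA was found on either strand of these 60 bases in 14 of the 35 members that the RefSeq table holds (40%), against 3.92% of the 32851 promoter entries of all genes. The 4 inner root sheath stretches and Krt10 held it, at 30 bases before the start in Krt25, Krt28 and Krt73, 26 in Krt10 and 15 in Krt27. The RefSeq starts of Krt27 and Krt73 lie 14 bases before the GENCODE start and that of Krt5 7 bases. The Krt77, Krt75, Krt79 and Krt5 stretches did not hold these letters. The palindrome GCCNNNGGC, a binding sequence of AP-2 factors, was in the 250 bases before the start of 5 of the 35 members (14.3%), against 13.7% of all entries. These matches describe letters in a window and were not linked to the levels that follow.

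The 5 libraries held 11084 cell barcodes, with 2163166 to 16773096 UMIs (unique molecular identifiers, each counted as 1 captured transcript) per library, and 10573 cells were kept. Any 2 libraries shared between 0 and 17 barcode sequences. Levels are given as CPM, the UMIs of a gene per 1000000 UMIs of the same cells. Ikbkb was read in fibroblast-like cells at 14.3 and 18.4 CPM in wild type and at 19.1, 21.1 and 15.3 in the Ikkb-deleted libraries 1, 2 and 3. These reads come from the 3′ end and the labels do not say which exons are floxed, so this level is no check of the deletion. A UMI tags the 3′ end once per molecule, so levels were not divided by gene length.

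Keratinocytes were the cells in which Krt5, Krt14, Krt15, Krt1 and Krt10 together made up at least 1% of UMIs. There were 139, or 12 and 22 in the wild-type libraries and 2, 2 and 101 in the Ikkb-deleted ones. The lowest cell inside the threshold was at 1.005% and the highest outside at 0.982%, with 44 cells between 0.5% and 1% and 43 between 1% and 1.5%. All 139 also had the 3 or more markers, out of 19 that are not keratins, that defined an epithelial class. These 19 markers took a median of 4.66% of their UMIs. The medians of fibroblast, myeloid and mast cell markers were 0, and that of lymphocyte markers was 0.0495%. Another 247 cells had the epithelial markers but lay under 1%, and are called other epithelial cells: 10 and 18 in wild type and 7, 9 and 203 in Ikkb-deleted libraries.

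Keratinocytes made up 0.389% and 0.682% of kept cells in wild type and 0.204%, 0.219% and 4.27% in the Ikkb-deleted libraries. The Ikkb-deleted libraries thus lay on both sides of the wild-type pair. The mean log2 share differed by 0.16 (exact 2-sided permutation test over 10 splits, p = 1.0, with 0.1 the smallest p that 2 against 3 libraries allow). Without Ikkb-deleted library 3 that difference was -1.29, and without wild-type library 1 it was -0.245. Library 3 supplied 101 of the 139 keratinocytes, and Ikkb-deleted libraries 1 and 2 had 10409 and 6791 keratinocyte UMIs against 947497 in library 3. In those small libraries a gene at 0 could still lie at up to 288 and 442 CPM, the level of 3 UMIs. This limit, like the other counting limits given here, covers counting error only.

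Of the 49 keratin genes, 46 had a UMI in a kept cell, 35 had 10 or more, and Krt31, Krt39 and Krt40 had none. Kept cells held 76136 keratin UMIs. Keratin UMIs were 1.63% to 3.58% of all UMIs in the keratinocytes of a library. The keratinocyte rule itself used the sum of 5 members, so high levels of those 5 there are a property of the choice. The other members were not used.

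**Figure D1:**
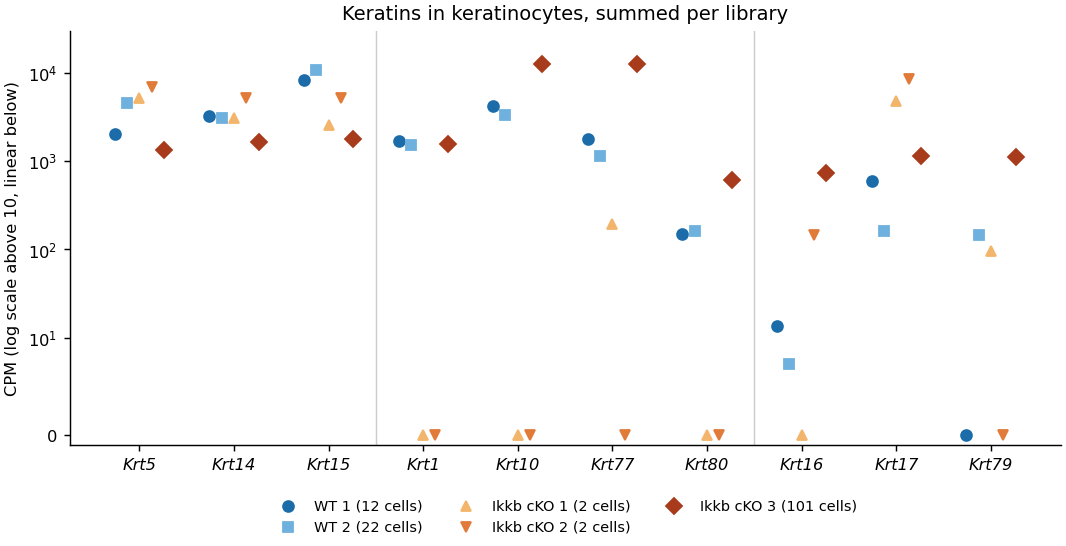
CPM (log scale above 10, linear below) of the 10 keratins that passed the low-count filter in keratinocytes, 1 point per library, with the number of cells in the legend. Krt15 lies lower and Krt17 higher in every Ikkb-deleted library than in both wild-type ones, while the spinous keratins are at or near 0 in Ikkb-deleted libraries 1 and 2 and high in library 3.

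Among the basal keratins, Krt15, the type I keratin of basal cells and of the hair follicle bulge, had 8489.9 and 10879 CPM in wild type and 2594, 5301 and 1818 in the Ikkb-deleted libraries. All 3 Ikkb-deleted libraries lay below both wild-type ones. The log2 fold change was -2.03 (SE 0.41). Krt15 is among the 5 genes whose sum chose these cells, as are Krt5, Krt14, Krt1 and Krt10, so their values here are descriptions and no test is read from them. Krt5, the basal type II keratin, read 2044 and 4583 in wild type and 5284, 7068 and 1349 in Ikkb-deleted libraries. Krt14, its type I partner, read 3257 and 3126 in wild type and 3074, 5301 and 1675 in Ikkb-deleted libraries. For both genes the groups overlapped, with Ikkb-deleted library 3 the lowest of the 5 and library 2 the highest. Their log2 fold changes were -0.06 (SE 0.56) and -0.39 (SE 0.45).

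Among the spinous keratins, Krt10 had 4197 and 3324 CPM in wild type, 0 and 0 in Ikkb-deleted libraries 1 and 2 and 12696 in library 3. Krt77, a type II keratin of suprabasal and sweat duct cells, had 1812 and 1157 in wild type and 192, 0 and 12844 in the Ikkb-deleted libraries. Krt1, the textbook partner of Krt10, read 1689.8 and 1530.1 in wild type, 0 and 0 in Ikkb-deleted libraries 1 and 2, and 1569 in library 3. So in library 3 Krt10 and Krt77 were each above both wild-type libraries while Krt1 lay between them. Krt80, a type II keratin of differentiating cells, followed the same order with 149.9 and 161 in wild type, 0 and 0, and 608 in library 3. The SE of the log2 fold change was 2.60 for Krt10 and 2.55 for Krt77, around estimates of 0.32 and 1.70. Krt78 and Krt23, minor keratins of the upper layers and of several epithelia, had 164 and 47 keratinocyte UMIs, of which 159 and 47 were in Ikkb-deleted library 3.

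Krt17, a keratin of the outer root sheath and companion layer that epidermis also makes after injury, had 599.6 and 161 CPM in wild type and 4899.6, 8688 and 1142 in Ikkb-deleted libraries. Every Ikkb-deleted library lay above both wild-type ones. The log2 fold change was 3.18 (SE 0.79; edgeR quasi-likelihood test, adjusted p = 0.109). In Ikkb-deleted libraries 1 and 2 the values rest on 51 and 59 UMIs from 1 and 2 cells. Krt16, a type I keratin of activated epidermis, had 13.6 and 7.3 in wild type and 0, 147 and 738 in the Ikkb-deleted libraries, where the 147 is 1 UMI. Wild type held 1 UMI in each library. Its log2 fold change was 5.40 (SE 1.32; edgeR quasi-likelihood test, adjusted p = 0.11), and 53 of the 101 keratinocytes of library 3 held it against 1 of 12 and 1 of 22 in wild type. Krt79, a type II keratin of the follicle opening, had 0 and 146 in wild type and 96.1, 0 and 1128 in Ikkb-deleted libraries. In keratinocytes Krt79 was carried by 17 cells, 5 of which held 66.6% of its UMIs.

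**Figure D2:**
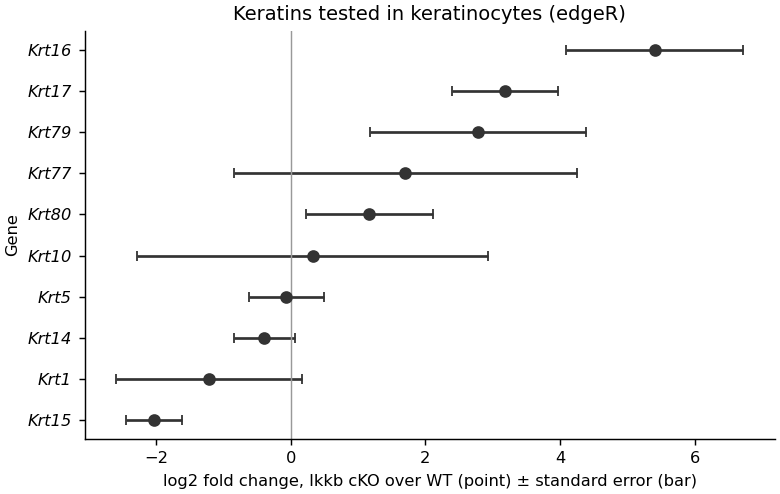
log2 fold change of Ikkb-deleted over wild-type keratinocytes (points) with its standard error (bars) from the edgeR fit, for the 10 keratins tested. Krt15 has the lowest estimate, -2.03, and Krt16 the highest, 5.40; the bars of Krt10 and Krt77 are the widest, with SEs of 2.60 and 2.55.

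Across all genes of the keratinocyte fit, 0 of 1223 tested genes were called (0%), and 0 of the 10 keratins tested. The edgeR quasi-likelihood test gave an unadjusted p under 0.05 for 170 genes (13.9%) and for 3 of the 10 keratins. These were Krt15, which the rule used, Krt17 and Krt16. DESeq2's Wald test called 0 genes as well, with 88 at an unadjusted p under 0.05, while limma voom with quality weights called 2 genes (0.164%), of which Krt15 was 1. Groups that did not overlap were seen for 1 of the 10 keratins in the lower direction (Krt15, from which nothing is read since the rule used it), against 21.8% of all tested genes, and for 1 in the higher direction (Krt17), against 12.6%. In counts simulated at the sizes of these libraries, the test found 4.17% of genes changed 2-fold, 26% of those changed 4-fold and 85.7% of those changed 8-fold. Every simulated gene had the same relative spread between libraries, and cell composition did not differ between them. These shares thus do not carry over to genes with a wider spread, such as Krt10 and Krt77.

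Of the 5 tested keratins that the rule did not use, Krt17 passed in 4 of 18 fits and Krt16 in 3 of 13, with adjusted p up to 0.997 and 0.807. Those counts include a fit with 1 Ikkb-deleted library, described below. Krt17 was called without Ikkb-deleted library 3, where 7.68% of all genes were, and Krt16 without library 1, where 5.55% were. Krt77 was called with replicate number as a block, at a log2 fold change of -4.33, where 2.62% were. It read 3.23 with Ikkb-deleted libraries 1 and 2 left out. Krt79 and Krt80 passed in no fit with more than 1 Ikkb-deleted library. When cells were chosen by the 19 non-keratin markers instead, which removes the choice by keratins, Krt15, Krt17 and Krt7 were called among 16 keratins tested, against 2.05% of all genes. The log2 fold changes there were -2.57 for Krt15 and 2.55 for Krt17. That choice takes cells with at least 0.5% of UMIs from these markers, so it also admits other epithelial cells, whose kinds differed between libraries. In other epithelial cells Krt7 had 998 and 443 CPM in wild type and 0, 0 and 2.05 in Ikkb-deleted libraries. The part of this mix of cells in these calls was not tested. With Ikkb-deleted libraries 1 and 2 both left out, an alternative chosen after seeing the data, 10 of 11 keratins were called, 4 of them used by the rule, and 759 of 2482 genes (30.6%). That fit holds 1 Ikkb-deleted library, assumed to vary as the wild-type pair does.

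**Figure D3:**
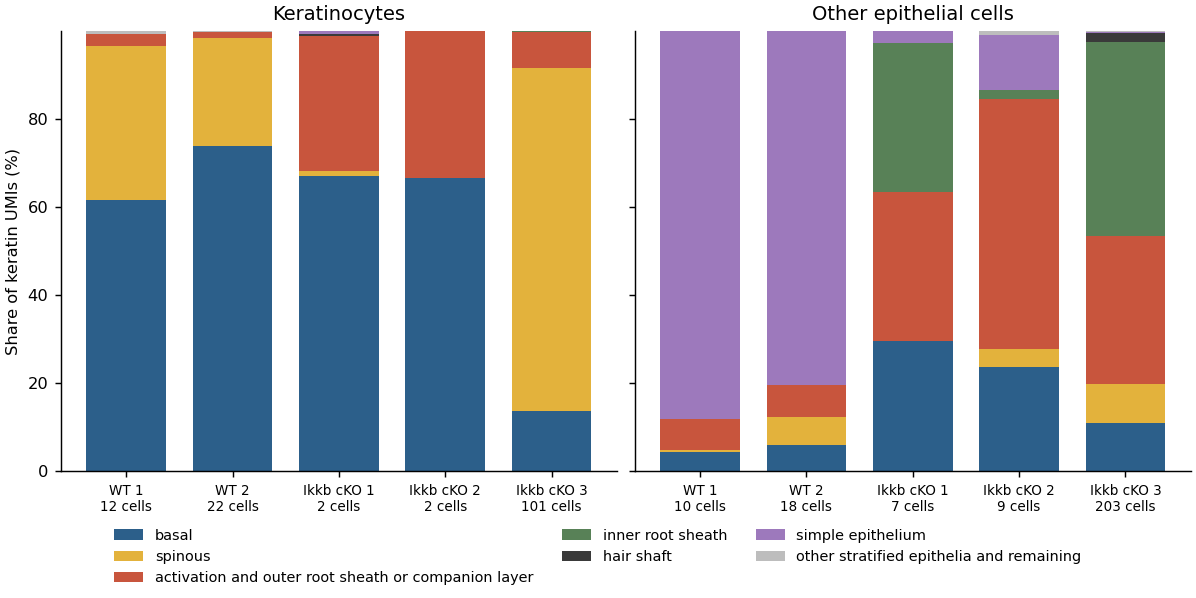
Share of keratin UMIs (%) by role group in each library, for keratinocytes (left) and other epithelial cells (right), with cell numbers under the bars. Basal keratins fill over 61% of the keratinocyte bars except in Ikkb-deleted library 3, where spinous keratins take 78.0%; on the right, simple-epithelium keratins fill the wild-type bars and sheath keratins the Ikkb-deleted library 3 bar.

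As shares of keratin UMIs, the basal group took 61.5% and 73.9% in wild-type keratinocytes and 67.1%, 66.7% and 13.5% in the Ikkb-deleted ones. The spinous group took 35.2% and 24.7% in wild type and 1.18%, 0% and 78.0% in the Ikkb-deleted libraries. Library 3 thus stood apart from the other 4 on both. By the role group with most UMIs in each cell, 71 of its 101 keratinocytes were spinous, against 4 of 12 and 5 of 22 in wild type. Its keratinocytes also had more UMIs, a median of 8734 against 5912.5 and 5762, and the part of depth in these shares was not tested. Type I exceeded type II UMIs in every library, 2.91 and 2.30 to 1 in wild type and 1.88, 2.75 and 1.03 to 1 in the Ikkb-deleted libraries.

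Other genes of the keratinocyte programme were counted from fixed lists in the same fit, and none of their members was called. Desmosome and adhesion genes, which anchor keratin filaments between cells, had 11 of 18 tested with a median log2 fold change of 1.06, 9 of the 11 above 0, against -0.148 and 534 above 0 over all 1223 genes. Its summed level was 6105 and 5981 CPM in wild type and 6052, 5154 and 11651 in the Ikkb-deleted libraries, so that library 3 alone lay above wild type. Cdh1 (E-cadherin) had the smallest p of that list, at a log2 fold change of 3.63 (SE 0.93). Hemidesmosome and basement membrane genes, which anchor the basal layer, had 5 of 11 tested, a median of -1.38 and all 5 below 0, as were 689 of the 1223 genes. Its summed levels overlapped, with 1295 and 2145 CPM in wild type and 769, 1473 and 765 in the Ikkb-deleted libraries. Cornified envelope genes had 4 of 25 tested and a median of 0.36, basal regulators 11 of 16 and -0.12, follicle and sebaceous genes 7 of 23 and -0.33, and alarm and activation genes 4 of 25 and -0.84. None of the 58 keratin-associated protein genes and trichohyalin reached the filter in keratinocytes. Summed cornified envelope levels were 13655 and 10176 CPM in wild type and 769, 7952 and 31931 in the Ikkb-deleted libraries, so library 3 was again the highest.

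By the role group with most UMIs in each cell, 99 of the 247 other epithelial cells were basal, 73 of the activation and companion group, 35 inner root sheath, 21 simple epithelium, 13 spinous and 6 hair shaft. The sums of UMIs gave another order, since a few cells carried many. In wild type their main keratins were those of simple epithelium, at 88.2% and 80.3% of keratin UMIs. Krt18 had 7015 and 4092 CPM in wild type and 0, 507 and 25.6 in the Ikkb-deleted libraries. Krt19, a type I keratin of ducts and of some follicle cells, had 4619 and 2343 in wild type and 0, 507 and 4.61 in the Ikkb-deleted libraries. Krt8 had 3660.4 and 1535 in wild type and 92.8, 277 and 1.54 in Ikkb-deleted libraries. Krt7, a type II keratin of glandular ducts, had 998 and 443 in wild type and 0, 0 and 2.05 in Ikkb-deleted libraries. For all 4 every Ikkb-deleted library lay below both wild-type ones, as for 14.7% of all genes with 10 or more UMIs in these cells, and the values rest on 8 and 10 Krt8-positive cells in the wild-type libraries. These cells also held Wfdc2, Cldn4, Aqp5 and the milk genes Csn3 and Wfdc18, genes of glandular epithelium that were picked after the values were seen. Krt8-positive cells of wild-type library 2 had 3287 Wfdc2 CPM and 1301 of Csn3, and those of library 1 had 2598 and 796, while Krt8-negative cells had 0. No genotype test was run in these cells, since few and different kinds of cells make up the group in each library.

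Ikkb-deleted library 3 supplied most follicle keratins. Inner root sheath keratins took 44.1% of keratin UMIs in its other epithelial cells and those of the activation and companion group 33.7%. Krt25 and Krt71, the pair of the inner root sheath, had 5407 and 4363 UMIs there. In Ikkb-deleted libraries 1 and 2 the pair had 21 and 2 and 0 and 4 UMIs, and in both wild-type libraries 0. The same library held 2833 UMIs of Krt27, 501 of Krt28 and 257 of Krt73, which belong to the same sheath. A few cells carried these sums: 5 cells gave 93.1% of Krt71 UMIs and 87.1% of Krt25 UMIs, and in 1 cell keratins were 35.5% of all UMIs. Trichohyalin (Tchh), which cross-links sheath keratins, had 4035 UMIs in the other epithelial cells of library 3 and 1 in those of the remaining 4 libraries.

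Of the companion and outer root sheath keratins, Krt17 was in 164 of the other epithelial cells, Krt75 in 64 and Krt79 in 47, against 74 for Krt25 and 84 for Krt28. Krt17 had 892 and 459 CPM in the other epithelial cells of wild type and 959, 4244 and 3317 in the Ikkb-deleted libraries, in 151 of 203 cells of library 3. Krt75, the companion layer type II keratin, had 0 and 0 in wild type and 61.9, 115 and 619.7 in Ikkb-deleted libraries, where the 61.9 and 115 are 2 and 5 UMIs. Krt79 had 413 and 324 in wild type and 155, 1476 and 1122 in Ikkb-deleted libraries, and these overlapped. Hair shaft keratins were rare in the other epithelial cells. Krt35, an early hair cortex and cuticle keratin, had 431 UMIs there and Krt84 91, all from Ikkb-deleted library 3. Of the Krt84 UMIs, 87 were in 1 cell. Krt87 and Krt86 had 32 and 5 UMIs, and Krt31, the cortex keratin, none. In other epithelial cells the 57 keratin-associated protein genes, which fill the hair shaft, had 5 and 104 UMIs in Ikkb-deleted libraries 2 and 3. They had none in the other epithelial cells of the remaining libraries. In keratinocytes they had 0 and 7 UMIs in wild type and 0, 0 and 3 in the Ikkb-deleted libraries.

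Over the 386 epithelial cells, of which 304 came from Ikkb-deleted library 3, each keratin was set against those of the opposite type by Spearman's correlation of log2 levels per cell, for the 22 members with a UMI in 20 or more of these cells. Krt77 had its closest partner in Krt10 (rho = 0.82), ahead of Krt1 with Krt10 (0.76), and 136 of 152 Krt77-positive cells held both. Krt80 and Krt78 also had Krt10 as their closest partner, at 0.68 and 0.57. Krt5 and Krt14 were each other's closest partners (0.60), with both in 152 of the 225 Krt5-positive cells. Krt8 was closest to Krt19 (0.78) and next to Krt18 (0.70), and Krt71 to Krt25 (0.43). Krt17 was closest to Krt79 (0.49), which 57 of 220 Krt17-positive cells held. Within library 3 alone, Krt77 with Krt10 gave 0.84 and Krt5 with Krt14 gave 0.57, while Krt8 with Krt19 gave -0.01, where 3 and 6 of its other epithelial cells held the 2 genes. The cells share libraries and differ in depth, so these values are descriptions.

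Outside the epithelium, cells were assigned to classes by markers that include no keratin: 5576 fibroblast-like, 2525 myeloid-like, 1044 lymphocyte-like and 127 mast-like cells were the classes that mattered here, and 361 cells had no class. A droplet can hold free RNA of other cells, so the keratins of keratinocytes were read first. Krt5, Krt14 and Krt15 together had 0.0951 and 1.26 CPM in fibroblast-like cells of wild type and 0, 0.92 and 10.6 in those of the Ikkb-deleted libraries. Library 3, with the most keratinocytes, was the highest. Krt5 had a UMI in 0.251% of fibroblast-like, 0.158% of myeloid-like and 0.479% of lymphocyte-like cells, whose median depths were 3708, 2540 and 2276 UMIs. Krt14, Krt15, Krt17, Krt25, Krt71 and Krt77 had a UMI in 0.0792% to 0.766% of the cells of these 3 classes, and the part of free RNA in them was not tested.

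**Figure D4:**
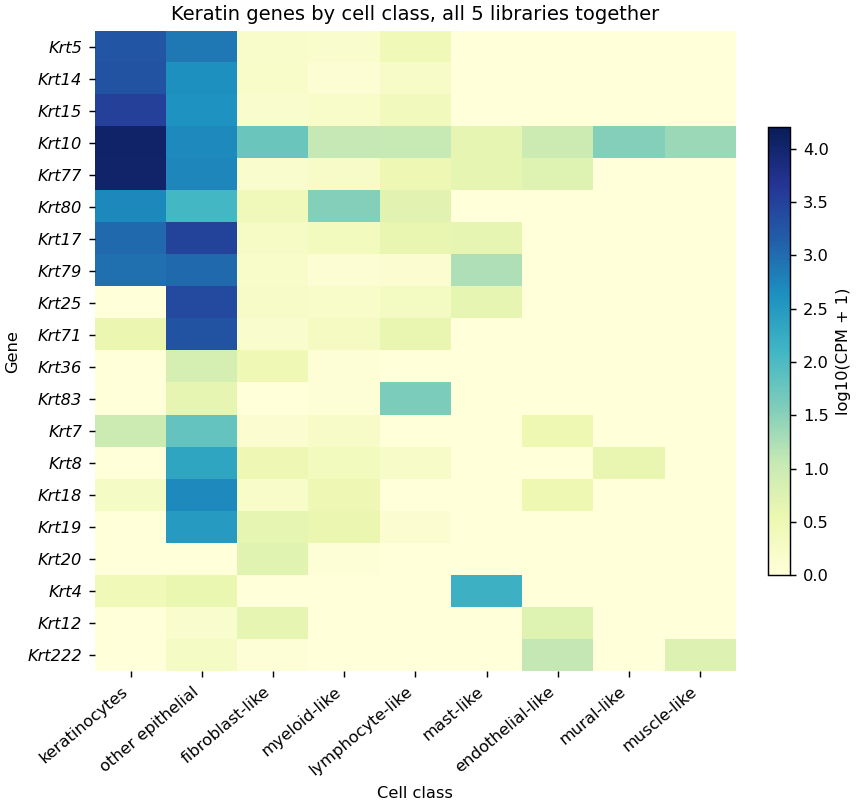
Level of 20 keratin genes, log10(CPM + 1), in each cell class with all libraries summed; classes other than keratinocytes are defined without keratins. Most keratins are dark only in the first 2 columns, while Krt10 is also seen in fibroblast-like and, at 32.6 and 22.1 CPM, in mural-like and muscle-like cells, Krt80 in myeloid-like, Krt83 in lymphocyte-like and Krt4 in mast-like cells.

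Krt10 was at 54.8 CPM (95% Poisson interval 52.1 to 57.7) in fibroblast-like cells, against 10.3 in myeloid-like and 10.1 in lymphocyte-like cells. Some small classes and the cells with no class lay between or could not be separated from it: 42.2 in cells with no class (31.2 to 55.8), 32.6 in mural-like (16.3 to 58.4), 22.1 in muscle-like (12.1 to 37.1) and 47.7 in Schwann-like cells, where it rests on 2 UMIs. It had 57.1 and 53.5 in wild-type fibroblast-like cells and 23.1, 46.0 and 67.9 in those of the Ikkb-deleted libraries, and was above its level in myeloid-like and lymphocyte-like cells in all 5 libraries. Muscle-like cells of Ikkb-deleted library 1 (29.4) and mural-like cells of library 2 (156.7) were higher than the fibroblast-like cells there. Each of these 2 values is 1 UMI. Schwann-like cells of wild-type library 2 were also higher, at 226.4 from 2 UMIs. So were cells with no class in wild-type library 1 (57.8 from 15 UMIs) and in Ikkb-deleted library 2 (67.8 from 8 UMIs). A Krt10 UMI was present in 1150 of 5576 fibroblast-like cells (20.6%), which became 5.72% when each cell was thinned to 1000 UMIs, against 1.11% of myeloid-like and 1.17% of lymphocyte-like cells thinned the same way. Fibroblast-like cells held 1482 UMIs of Krt10 and 12 of Krt77, whereas keratinocytes held 12791 and 12463. In wild type there were 177 Krt10 UMIs for each UMI of Krt5 and Krt14 in fibroblast-like cells, a ratio that rests on 7 UMIs of the pair, and 0.527 in epithelial cells. In Ikkb-deleted libraries the ratios were 10.2 and 2.33, a smaller gap, and library 3 held all 24 UMIs of the pair. The part of free RNA in these Krt10 values was not tested. Krt10 overlaps the antisense gene Gm11940 on the other strand. The strand setting of the counting is not given in the sources used here. Whether any Gm11940 reads entered the Krt10 counts was not tested.

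Krt80 was detected in myeloid-like cells, at 33.8 CPM (95% Poisson interval 30.0 to 38.1), against 1.48 in fibroblast-like and 3.84 in lymphocyte-like cells. Cells with no class had 13.8 (7.88 to 22.4). In Ikkb-deleted library 3 they were above the myeloid-like cells, at 27.5 from 8 UMIs against 21.5. Myeloid-like cells had 31.7 and 43.4 in wild type and 29.8, 40.2 and 21.5 in the Ikkb-deleted libraries, so the groups overlapped, and the log2 fold change was -0.46 (SE 0.30; edgeR quasi-likelihood test, adjusted p = 0.315). A UMI was found in 224 of 2525 cells (8.87%, or 3.16% after thinning). Among genes picked after the values were seen, Krt80-positive cells had more Cd209a, a lectin of monocyte-derived dendritic cells, with 3.23 times the level of Krt80-negative myeloid-like cells in wild-type library 2 and 2.38 times in library 1. Il1b, the inflammatory cytokine, was at 2.20 and 1.94 times. Krt80 also overlaps an antisense gene, Gm35853.

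Krt83, a hair cortex keratin, was a lymphocyte-like signal: 110 of its 119 UMIs lay in 66 of 1044 lymphocyte-like cells, 1 in fibroblast-like and 1 in myeloid-like cells. Its level there was 38.4 CPM overall (95% Poisson interval 31.5 to 46.3), with 68.9 and 25.4 in wild type and 18.7, 5.15 and 49.9 in the Ikkb-deleted libraries. These overlapped, and the log2 fold change was -0.51 (SE 0.78; edgeR quasi-likelihood test, adjusted p = 0.715). The 43 positive cells of Ikkb-deleted library 3 held 4758 CPM of Gzmc, a granzyme of cytotoxic lymphocytes picked after the values were seen, against 1638 in negative cells, and the 9 of wild-type library 1 held 5229 against 190.1. Gzmc was detected in 20.9% of the 43 cells, so a few cells carry that value.

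Krt4, a type II keratin of oral and oesophageal epithelium, was found in mast-like cells, with 46 UMIs in 31 of 127 cells (24.4%; exact binomial 95% interval 17.2 to 32.8) and 0 in all fibroblast-like, myeloid-like and lymphocyte-like cells. A count of 0 among 27035150 UMIs in fibroblast-like cells allows up to 0.111 CPM. Mast-like cells had 220.3 and 147 CPM in wild type and 0, 108 and 101 in the Ikkb-deleted libraries, from 23, 17, 0, 2 and 4 UMIs. Both wild-type libraries were above all 3 Ikkb-deleted ones, as for 16% of all genes with 10 or more UMIs in mast-like cells, and no test was run in this small class. Keratinocytes held 2 Krt4 UMIs and other epithelial cells 6.

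**Figure D5:**
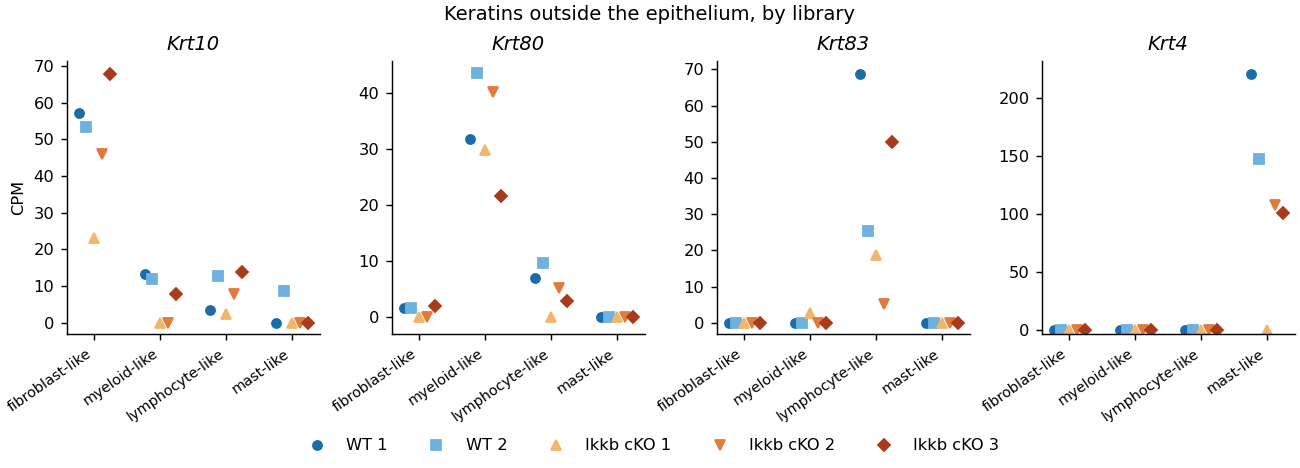
CPM of Krt10, Krt80, Krt83 and Krt4 in fibroblast-like, myeloid-like, lymphocyte-like and mast-like cells, 1 point per library. Among these 4 classes each gene, all libraries together, is highest in 1: Krt10 at 23.1 to 67.9 in fibroblast-like cells, Krt80 at 21.5 to 43.4 in myeloid-like, Krt83 at 5.15 to 68.9 in lymphocyte-like and Krt4 at 0 to 220.3 in mast-like cells.

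Krt20, Krt12, Krt36 and Krt19 were rarer and, outside the epithelium, had most of their UMIs in fibroblast-like cells, apart from Krt19 with 48.8% there. Krt20, an intestinal and Merkel cell keratin, had 107 of its 108 UMIs there, in 93 cells, and none in the epithelial cells, with 3.52 and 4.04 CPM in wild type and 0, 0 and 8.64 in the Ikkb-deleted libraries. Krt12, the corneal keratin, had 85 UMIs there, of which 35 and 47 were in wild type and 0, 2 and 1 in Ikkb-deleted libraries. Those were 3.33 and 3.95 CPM against 0, 1.84 and 0.393. Krt36, a hair and nail keratin, had 53 there, 22 and 29 of them in wild type and 0, 2 and 0 in Ikkb-deleted libraries. Its levels were 2.09 and 2.44 CPM against 0, 1.84 and 0. Krt19 had 83 in 50 fibroblast-like cells, 47 and 34 of them in wild type and 0, 1 and 1 in Ikkb-deleted libraries. In CPM these were 4.47 and 2.86 against 0, 0.92 and 0.393. A further 21 Krt19 UMIs lay in myeloid-like cells and 65 in cells with no class. Wild-type fibroblast-like cells were deeper, with median UMIs of 4828 and 5287 against 1556, 1762 and 2448. Their summed UMIs were 10511476 and 11894154 against 994334, 1087527 and 2547659, and the part of depth in these counts was not tested. Few cells held more than 1 of the 4 genes: none held Krt12 with Krt19 or Krt36, 3 held Krt19 with Krt36, and each pair with Krt20 was in 2. With 50 to 93 positive cells per gene among 5576, unrelated genes would also share few cells. These counts thus do not show that the genes mark separate cells.

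Krt36-positive and Krt19-positive fibroblast-like cells had more Pi16 and Akr1c18, genes of adventitial and fascial fibroblasts that were picked after the values were seen. Pi16 was at 4.06 and 3.29 times the level of Krt36-negative cells in wild-type libraries 2 and 1, and at 2.78 and 3.73 times that of Krt19-negative cells in libraries 1 and 2. Krt20-positive cells also had more of both, with smaller ratios. Against Krt20-negative cells, Pi16 was at 1.94 and 1.86 times and Akr1c18 at 1.96 and 1.27 times in libraries 2 and 1. Krt12-positive cells instead had more Cdkn1c, Enpp2 and Rgcc, with Enpp2 at 2.69 and 3.11 times in libraries 2 and 1. Krt12 too overlaps an antisense gene, A830036E02Rik.

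Krt8 in fibroblast-like cells came from Ikkb-deleted library 3, which held 44 of its 54 UMIs in 29 of the 35 positive cells, a level of 17.3 CPM against 0.0951 and 0.757 in wild type. These cells had more Coch, at 4051 CPM against 616 in Krt8-negative cells, and more Igfbp2, at 2313 against 222. Both were picked after the values were seen, and Crabp1, F13a1 and Fmod had higher ratios than Coch. Coch was detected in 27.6% of the 29 cells and Igfbp2 in 65.5%. The 5 Krt8-positive cells of wild-type library 2 read 5483 against 2.70 for Coch, so Coch was higher in them too. Krt7 had 7 UMIs and Krt18 17 in all fibroblast-like cells. A further 73 UMIs of Krt18, 65 of Krt19 and 33 of Krt8 lay in 5 or 6 cells with no class, and all 5 Krt19-positive ones were from wild type. Krt222, a keratin-like gene, had 19 UMIs in all, 5 of them in 45 B-lineage cells and 5 in 176 endothelial-like cells.

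In the fits of these classes 0 keratins were called. The fibroblast-like fit called 3709 of 10466 genes (35.4%), with Krt10 (log2 fold change -0.25, SE 0.38) and Krt20 (0.19, SE 0.87) the 2 members tested. The myeloid-like fit called 1662 of 9036 (18.4%), with Krt10 (-1.22, SE 0.55) and Krt80 the 2 tested. Of these 2, Krt10 alone had an unadjusted p under 0.05 (edgeR quasi-likelihood test, 0.047), as had 2910 of the 9036 genes. The lymphocyte-like fit called 520 of 4748 (11%), and Krt83 was the 1 member tested. DESeq2's Wald test also called 0 keratins in each. Without Ikkb-deleted library 2, Krt12 and Krt36 passed the filter and were called in fibroblast-like cells, in a fit that called 25% of all genes. Without library 3 Krt10, Krt20 and Krt19 were called there, with 46.9% of all genes. Krt10 was called lower in Ikkb-deleted fibroblast-like and myeloid-like cells when library 3 was left out (21.8% of all genes called in myeloid-like cells), at log2 fold changes of -0.71 and -7.32, the latter against libraries at 0. In library 3 Krt10 was 67.9 and 7.88 CPM in these 2 classes, and the part of background RNA from its keratinocytes in those values was not tested.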

How the data were processed

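Cells of digested ventral skin, sorted to leave out debris, dead cells and aggregates, were captured with the 10x 3′ v2 kit in 5 libraries. The deposited values are UMI counts per gene and cell; the submitters' processing notes name Cell Ranger 1.3.0 and build mm10, and the matrix headers give software version 3.0.1. Cell barcodes and gene names were read from the deposited index files. Barcodes were dropped below 300 genes or above 10% mitochondrial UMIs. Scrublet (scanpy 1.11.5) marked 0.352% of barcodes as doublets, too few to count as working, so doublets largely remain, although the marked barcodes were left out. A class needed 3 detected markers and a lead of 2 over the next class, a rule set after seeing the data. UMI counts of a class were added up within each library and tested with edgeR 4.0.16 (R 4.3.3; robust quasi-likelihood, TMM, filterByExpr, Benjamini-Hochberg over all genes tested, threshold 0.05), with DESeq2 1.42.0 and limma 3.58.1 as alternatives. The tests were checked on simulated counts. Nothing says that the pooled mice were littermates or that libraries were made apart in time, so p-values measure the spread between these libraries. Members named in keratinocytes are those that passed filterByExpr; elsewhere they are the 6 with most UMIs outside the epithelium, and Krt7, Krt8, Krt18, Krt19, Krt20 and Krt222. Krt12, Krt36, Krt4 and the members of other epithelial cells were added after their values were seen. Members and lists were chosen with earlier results of these data known. Promoter sequences came from RefSeq (GRCm38.p6) and matched 35 of 49 members by symbol.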

Additional observations from a re-analysis of the deposited data

How the results depend on the processing

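The keratinocyte share difference of 0.16 (log2) ranged from -1.29 to 0.908 when each library was left out, reversing without wild-type library 1 (-0.245) and without Ikkb-deleted library 3 (-1.29). It was 1.29 with the keratin-free definition, 0.825 at 0.5% of UMIs and 0.359 over all deposited barcodes; at 2% of UMIs 1 library had no keratinocyte, so that alternative gave no value. Against 0 genes called in keratinocytes, leaving out each library gave 0 to 100, the replicate block 32, 500 genes and 5% mitochondrial UMIs 50, thresholds of 0.5% and 2% 1 and 10, the keratin-free definition 39, voom 2, and leaving out Ikkb-deleted libraries 1 and 2, chosen after seeing the data, 759. Against 0 keratins called there, the same alternatives gave 0 to 4, 5, 1, 1 and 0, 3, 1 and 10. In fibroblast-like cells leaving out each library gave 0 to 3 keratins, the replicate block 2 and no low-count filter 6; in myeloid-like cells 0 to 1, 1 and 3; in lymphocyte-like cells the block gave 1. In the fits that called a keratin, 20.2% to 50.4% of all genes were called in fibroblast-like, 13.4% to 21.8% in myeloid-like and 25.2% in lymphocyte-like cells, and 0.0845% to 30.6% in keratinocytes. The other alternatives left these counts as they were. Where both the 2% and the stricter cell filter left Ikkb-deleted library 1 without keratinocytes, 4 libraries were fitted.

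The labels number replicates 1 and 2 in both groups and 3 in Ikkb-deleted mice alone, and nothing says that a number marks a shared day or litter. The differences between replicates 1 and 2 in the 2 genotypes correlated at -0.05 to 0.02 over genes in the 4 classes. Noise alone also gives values near 0, so this check cannot decide whether a number marks a shared day or litter. In keratinocytes, Ikkb-deleted libraries 1 and 2 hold only 2 cells each. In the block fit library 3 does not bear on the genotype term.

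Of the log2 fold changes of tested members, 27 values turned sign, 167 kept their direction and side of the threshold, and 27 kept their direction and passed it. In keratinocytes Krt5 became 0.482 without wild-type library 2, 0.853 without Ikkb-deleted library 3 (range -1.01 to 0.853 over libraries left out), 0.427 with the replicate block, 0.0353 with DESeq2 size factors, 0.0394 with its Wald test, 0.0814 at 0.5% of UMIs and 0.344 with equal cell numbers. Krt10 became -10.8 without library 3 (range -10.8 to 0.989), -12.7 with the replicate block, -0.39 with the keratin-free definition and -2.83 with voom. Krt77 became -3.66 without library 3 (range -3.66 to 2.35), -4.33 with the replicate block and -0.0847 with voom. Krt80 became -8.12 with the replicate block and -0.363 with voom, and Krt79 -0.463 with the block. Krt14 became 0.323 without library 3 (range -0.783 to 0.323) and 0.674 at 2%, and Krt1 0.104 at 2% and 0.0612 without Ikkb-deleted libraries 1 and 2. In fibroblast-like cells Krt20 became -0.137 without wild-type library 1 and -7.55 without Ikkb-deleted library 3 (range -7.55 to 0.646), -7.37 with the replicate block and -0.281 with the Wald test, and Krt10 became 0.0651 without Ikkb-deleted library 1 (range -0.709 to 0.0651). Krt83 in lymphocyte-like cells became 0.333 without wild-type library 1 (range -1.1 to 0.333). Fitted changes against libraries at 0 depend on the prior count, and the cause of the other reversals was not tested. Krt15 ranged from -3.05 to -1.38, Krt17 from 1.82 to 6.71 and Krt16 from 2.09 to 6.32 over the fits that tested them.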
